A study of Mus musculus with 6 samples.

Results

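The genes described here are 34 genes of DNA replication and S phase, read in a table of 17169 mouse gene entries. The members were chosen by name from known roles in replication, but with earlier results of these data known. The list of other replication genes used below was also chosen with those results known. Counts from these lists, set beside shares of all genes, are therefore descriptions. All 34 members had an entry that was above 0 in each of the 6 libraries. By role they were 2 licensing factors, 6 subunits of the helicase, 4 factors that activate it, 6 subunits of polymerases and primase, 5 genes of the sliding clamp and its loader, 2 genes of flap removal and ligation, 1 chromatin assembly factor, 4 enzymes of nucleotide supply and 4 regulators of the entry into S phase.

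Of the 6 libraries, 3 came from the cell lines BBC, ZNF and BCRF8C (grown as BBC2, ZNF112 and BCRF8C in the protocol) after 24 h with BGJ398 (infigratinib), an inhibitor of FGF receptor kinases, and 3 from the same lines after 24 h with the solvent DMSO. The protocol names doses of 30, 3 and 1.5 nM, which would belong to BBC (30), ZNF (3) and BCRF8C (1.5) if they follow its order of lines. The lines had been grown out of bone marrow taken from diseased Balb/c mice and are labelled SCLL (stem cell leukemia and lymphoma), a disease in which a fused, active FGFR1 kinase drives the leukaemic cells. The fusion in each line is not given in the sources used here. Each line and agent had 1 library, so within a line there was no replicate, and dose and line cannot be told apart. The question stated for the series is what blocking FGFR1 does to the transcriptomes of such lines.

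Before S phase, Cdc6 and Cdt1 load the ring of Mcm2 to Mcm7 onto origins of replication, and Cdc45, the GINS complex and Mcm10 turn that ring into a moving helicase. Primase and the polymerases alpha, delta and epsilon then copy the DNA, the replication factor C complex loads the clamp Pcna, and Fen1 and Lig1 join the fragments of the lagging strand. Many of these genes are known to be switched on together near the start of S phase by the E2F transcription factors, which cyclin E and its kinase help to release from the retinoblastoma protein.

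Promoters of these genes are shown first because the members are known as a group with shared E2F control. Of the 34 members, 28 had a promoter in the RefSeq table of build GRCm38.p6, each as 300 bases (250 before the annotated start and 50 after it), and 5 of the 28 had more than 1 promoter. These promoters were searched on both strands for the letters TTTCCCGC, TTTGGCGC and TTTCGCGC, forms of the E2F binding motif. The letters stood in the promoters of 12 of the 28 members (42.9%), and in 12 of their 34 promoters (35.3%), against 606 of all 32851 promoters (1.84%) and 3.52% of the 11003 promoters of genes tested here. Of 83 promoters of other replication genes 25.3% held them. Matches on opposite strands can overlap, as in Mcm5 and Mcm6, and of the 18 matches 9 began upstream of the annotated start. A match is a description of letters and not of binding.

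The windows around matches in 8 of these 12 members follow, chosen to show each motif in several roles, 5′ to 3′ on the strand of the gene, with the matched letters in capitals.
Cdc6 (chr11:98908002-98908031, plus strand): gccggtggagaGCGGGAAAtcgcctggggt
Cdt1 (chr8:122568036-122568064, plus strand): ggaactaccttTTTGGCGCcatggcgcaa
Mcm5 (chr8:75109347-75109376, plus strand): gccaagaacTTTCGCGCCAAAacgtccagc
Mcm6 (chr1:128359795-128359824, minus strand): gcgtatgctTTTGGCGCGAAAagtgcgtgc
Pola1 (chrX:93632275-93632304, minus strand): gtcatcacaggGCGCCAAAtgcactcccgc
Pole2 (chr12:69228162-69228191, minus strand): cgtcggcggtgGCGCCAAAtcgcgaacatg
Rfc3 (chr5:151651195-151651224, minus strand): gcacgcTTTCGCGCtcGCGGGAAAactcta
E2f2 (chr4:136172302-136172323, plus strand): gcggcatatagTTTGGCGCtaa

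To set a helicase gene with the letters beside one without them, the bases before the annotated start are given for Mcm6, with 3 matches at 110, 106 and 47 bases upstream of the start, and for Mcm2, where none of the 3 motifs was found in the 300 bases.
Mcm6 upstream (chr1:128359706-128359955, minus strand): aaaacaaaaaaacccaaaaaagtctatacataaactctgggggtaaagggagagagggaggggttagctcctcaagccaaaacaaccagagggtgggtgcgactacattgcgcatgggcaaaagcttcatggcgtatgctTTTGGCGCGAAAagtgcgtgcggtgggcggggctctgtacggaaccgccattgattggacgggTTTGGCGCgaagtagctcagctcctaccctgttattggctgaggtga
Mcm2 upstream (chr6:88898781-88899030, minus strand): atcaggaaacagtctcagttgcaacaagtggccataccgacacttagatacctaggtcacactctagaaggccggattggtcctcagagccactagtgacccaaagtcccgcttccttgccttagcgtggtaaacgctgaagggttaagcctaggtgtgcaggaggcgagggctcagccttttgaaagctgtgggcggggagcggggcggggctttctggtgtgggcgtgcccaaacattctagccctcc

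The values were FPKM (fragments per length of transcript and per mapped fragments), which allow levels of different genes to be compared within a library. Each log2 ratio sets BGJ398 over DMSO after adding 1 to the FPKM, so the change of a low gene comes out too small. The sequencing depth behind the values is unknown. Markers of the B lineage were high in BBC only (7 genes, each with an entry; summed level 713 FPKM with BGJ398 and 1312 FPKM with DMSO, against at most 9.54 FPKM in any library of the other lines, where Cd79b, Vpreb1 and Igll1 were at 0). Markers of the T lineage were highest in ZNF (7 of 9 with an entry, 571 FPKM with BGJ398 and 875 FPKM with DMSO) and lower in BCRF8C (58.4 and 109 FPKM) and in BBC (46.8 and 63.5 FPKM). Most of the sum in BCRF8C was Thy1 (43.6 FPKM with BGJ398 and 92.3 FPKM with DMSO). In BBC most was Lck (27.5 and 28.6 FPKM) and Thy1 (11.8 and 31.6 FPKM). Cd3g was at most 1.57 FPKM in these 2 lines, and Cd3d was at most 1.84 FPKM in BBC and at 0 in BCRF8C. Stromal markers had 3 of 6 genes with an entry, and their sum was 3.20 to 16.6 FPKM in the BGJ398 libraries and 0.372 to 3.16 FPKM in the DMSO libraries, with Lum at 0 in both ZNF libraries. Of the myeloid markers 4 of 7 had an entry, at 0 in both ZNF libraries and at 6.40 to 10.9 FPKM in sum in the others. Stem and progenitor markers (3 of 5 with an entry) summed to 4.05 to 14.2 FPKM in the BGJ398 libraries and 1.61 to 3.33 FPKM in the DMSO libraries, and erythroid markers (3 of 6) to at most 11.4 FPKM with BGJ398 and 23.9 FPKM with DMSO, both in BBC, with Hba-a1 and Hbb-b1 at 0 outside BBC. Their part in the results was not tested.

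The BGJ398 libraries stood apart from the DMSO libraries over all genes, and this touches every result that follows. Over the 14232 genes tested, those averaging 1 FPKM or more, the median was 4.53, 6.47 and 4.92 FPKM with BGJ398 in BBC, ZNF and BCRF8C, against 9.95, 8.36 and 9.03 FPKM with DMSO. The median log2 ratio of all genes was -0.91 in BBC, -0.37 in ZNF and -0.76 in BCRF8C, and highly expressed genes had lower ratios than weakly expressed ones. The low end differed as well. Values above 0 and under 0.9 FPKM numbered 707, 261 and 404 with BGJ398 in BBC, ZNF and BCRF8C, against 3049, 2892 and 4372 with DMSO, while those at 0.9 to 2 FPKM numbered 4913, 2461 and 3024 with BGJ398, against 2070, 1000 and 998 with DMSO. Entries at 0 were equal in number between the agents in ZNF (3185 in each library) and in BCRF8C (1640 in each), but not in BBC (332 with BGJ398 and 746 with DMSO). No source used here says how low values were treated, or whether a 0 was a measured level. The marker genes given at 0 above share this limit. No member was under 1 FPKM in any library, and with all values under 1 FPKM set to 1 the same number of members was called as below. Ratios were therefore also computed with the trend of the ratio on expression removed within each line, which sets the median of all genes to 0.03. Both scales are given below for the members as a group, and for each member in the plot of ratios by gene and line. The text gives the ratio with the trend removed for some members only, so a missing value does not mean an unchanged ratio.

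With BGJ398 the replication genes were lower as a group in all 3 lines. Their median level was 10.8, 23.04 and 12.97 FPKM with BGJ398 in BBC, ZNF and BCRF8C, against 50.5, 55.5 and 53.9 FPKM with DMSO. Across the lines 31 of 34 fell (91.2%) in limma with cell line as a blocking factor (adjusted p under 0.05 over all 14232 genes), where 30.2% of all genes were called lower. None of the 34 was called higher by limma at an adjusted p under 0.05, while 6.61% of all genes were. At an unadjusted p under 0.05 in limma none of the 34 was higher either, while 7812 of all genes passed in either direction, 6166 of them lower. The median of the members' mean log2 ratios was -1.80, against -0.69 over all genes tested. The members that did not pass were Ccne2, E2f1 and E2f2, all regulators of the entry into S phase. In bulk RNA, fewer cells in S phase and less of each transcript per cell cannot be told apart.

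Replication genes are well expressed, and expressed genes fell more often. Among the 1832 genes whose mean FPKM lay within the quartiles of the members' means (22.9 to 50.8 FPKM), 59.6% were called lower and the median log2 ratio was -1.30. The 16 members in that range had a median of -1.76, and 15 of them were called lower. Scaling by median of ratios left 0 members called in limma (0.00703% of all genes lower, 0.0211% higher), and quantile normalization 0 (0.00703% lower, 0.0141% higher). At an unadjusted p under 0.05 in limma, 29 members were lower after median-of-ratios scaling, against 21.9% of all genes, and 18 after quantile normalization, against 13.6%. With the expression trend removed, 0 of the 34 members and 0% of all genes passed. On that scale limma gave an unadjusted p under 0.05, lower, for 14 members (41.2%), against 9.79% of all genes (21.7% in either direction), and the median of the members was -0.51. Of the 34 members 33 were lower in all 3 lines as deposited (55.7% of all genes) and 21 with the trend removed (25.4% of all genes). With 1 line left out, the count of 31 was 6 without BBC (7.31% of all genes lower), 8 without BCRF8C (6.23%) and 30 without ZNF (32.6%), while the members' median ratio was -1.53, -1.73 and -2.02. It was 0 without the line as a block.

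**Figure D1:**
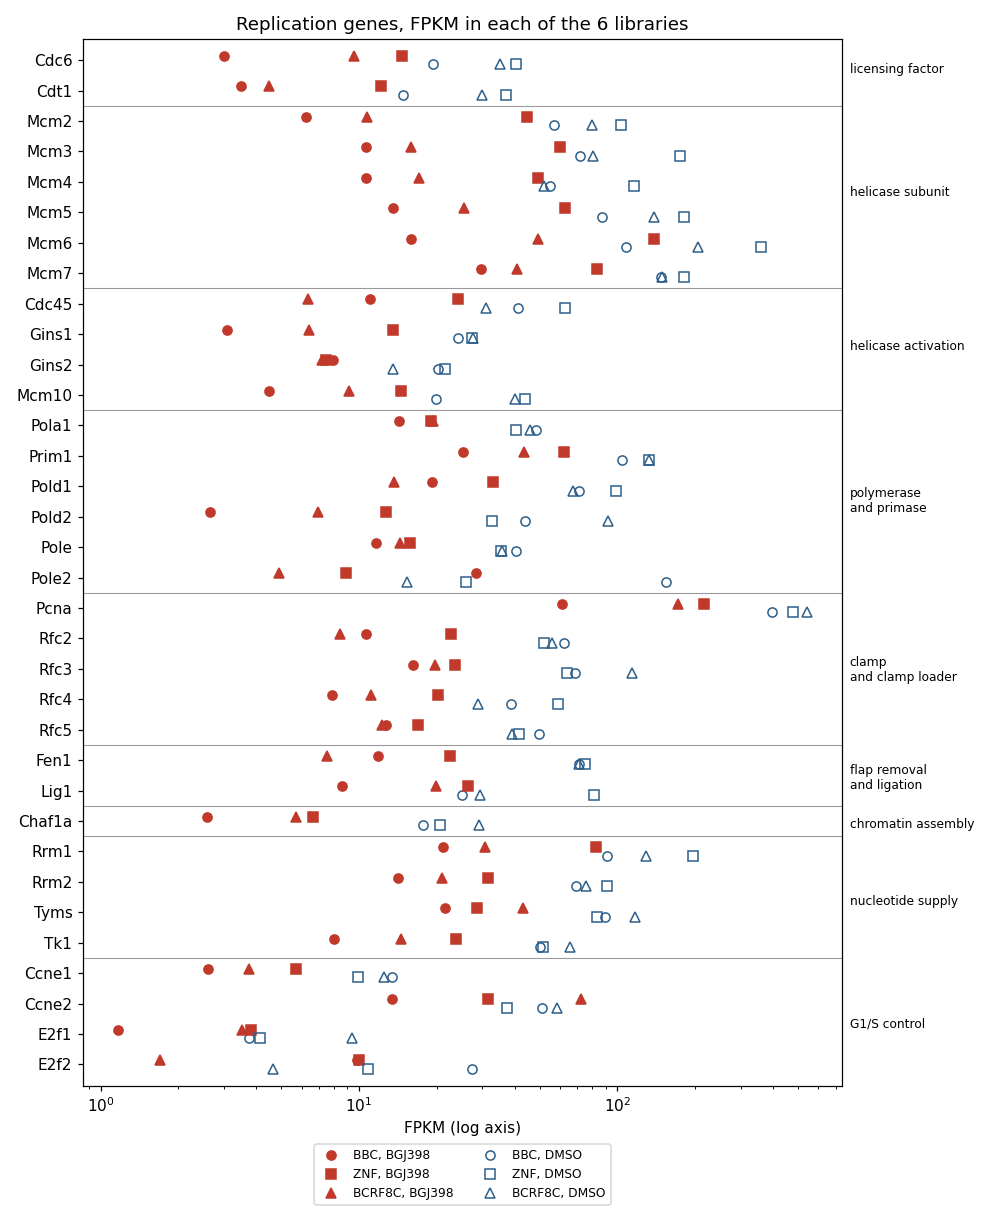
FPKM (log axis) of each of the 34 replication genes in the 6 libraries, grouped by role. Filled red symbols are BGJ398 libraries and open blue symbols DMSO libraries, with 1 symbol shape per line. For 28 genes all BGJ398 symbols lie left of all DMSO symbols, and Ccne2 in BCRF8C lies to the right of its DMSO value.

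The levels of 28 of the 34 members did not overlap between the agents, as all 3 BGJ398 libraries were below all 3 DMSO libraries. This was so for 35.1% of all genes tested. The 6 that overlapped were Mcm6, Pole2, Lig1, Ccne2, E2f1 and E2f2. Pcna was the member with the highest level in each of the 6 libraries, and E2f1 the lowest in BBC and ZNF, while E2f2 was the lowest in BCRF8C.

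All 6 subunits of the Mcm2 to Mcm7 helicase ring fell, with mean log2 ratios between -2.33 and -1.68 and a class median of -2.09. Mcm2 (ENSMUSG00000002870, chromosome 6, 88833469 to 88848774 in NCBIM37) had 6.22, 44.6 and 10.7 FPKM with BGJ398 in BBC, ZNF and BCRF8C, against 57.1, 103 and 79.5 FPKM with DMSO. The BGJ398 libraries of BBC and BCRF8C were far below all others, and the ratio of -2.33 ± 0.99 (SD, n = 3 lines) was the lowest of the ring (limma adjusted p = 0.0348). Mcm6 (ENSMUSG00000026355, chromosome 1, 130228168 to 130256233), whose promoter is shown above, was the most abundant subunit in ZNF and BCRF8C, with 15.9, 139 and 49.3 FPKM with BGJ398 in BBC, ZNF and BCRF8C, against 108, 359 and 205 FPKM with DMSO. Its BGJ398 value in ZNF lay above its DMSO value in BBC, so its groups overlapped, although it was lower with BGJ398 in each line (-2.68, -1.36 and -2.04 in BBC, ZNF and BCRF8C).

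Mcm3 had 10.6, 59.9 and 15.9 FPKM in the BGJ398 libraries of BBC, ZNF and BCRF8C, against 71.4, 175 and 80.7 FPKM in their DMSO libraries. Mcm5 had 13.6, 62.5 and 25.5 FPKM in the BGJ398 libraries of BBC, ZNF and BCRF8C, against 86.9, 181 and 139 FPKM in their DMSO libraries. In both genes ZNF was the highest line with either agent, the agents did not overlap, and the ratios were alike at -2.15 ± 0.56 for Mcm3 and -2.17 ± 0.57 for Mcm5 (limma adjusted p = 0.0348 for each). Mcm4 had 10.6, 49.1 and 17.04 FPKM with BGJ398 in BBC, ZNF and BCRF8C, against 55.1, 116 and 52.03 FPKM with DMSO, and its lowest DMSO library lay just above its highest BGJ398 library. Mcm7 had 29.6, 83.8 and 40.9 FPKM with BGJ398 in BBC, ZNF and BCRF8C, against 147, 182 and 148 FPKM with DMSO, with the BGJ398 library of BBC the lowest. Mcm4 (-1.68 ± 0.54, limma adjusted p = 0.0348) and Mcm7 (-1.74 ± 0.59, limma adjusted p = 0.0352) fell least of the ring.

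With the expression trend removed, the ring was lower in BBC than in BCRF8C. All 6 subunits stayed below 0 in BBC (class median -1.01) and in ZNF (-0.38), and in BCRF8C 4 of 6 did (-0.33). The median of all genes on this scale was 0.02, -0.01 and 0.02 in BBC, ZNF and BCRF8C. The share of all genes below 0 in each line was not computed. Mcm2 was the lowest subunit in BBC and BCRF8C but not in ZNF, at -1.57, -0.30 and -1.21 in BBC, ZNF and BCRF8C. Mcm4 and Mcm7 were at 0.02 and 0.05 in BCRF8C. No subunit passed limma on this scale, where the adjusted p of the ring ran from 0.182 to 0.555.

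The licensing factors and the factors that activate the helicase fell as well. Cdc6 (ENSMUSG00000017499, chromosome 11, 98769115 to 98785254), the ATPase that recruits the ring to origins, had 2.99, 14.7 and 9.59 FPKM with BGJ398 in BBC, ZNF and BCRF8C, against 19.3, 40.6 and 35.3 FPKM with DMSO. Cdt1, its partner in loading, had 3.48, 12.2 and 4.47 FPKM with BGJ398 in BBC, ZNF and BCRF8C, against 14.8, 37.2 and 29.9 FPKM with DMSO. BBC was the lowest line with BGJ398 in both genes, and their agents did not overlap. The mean log2 ratio was -1.84 ± 0.47 for Cdc6 and -1.95 ± 0.50 for Cdt1 (limma adjusted p = 0.0348 for each). Both were below 0 in every line also with the trend removed, Cdt1 at -0.70, -0.81 and -1.25 in BBC, ZNF and BCRF8C.

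Cdc45, which joins the ring in the active helicase, had 11.04, 24.2 and 6.35 FPKM in the BGJ398 libraries of BBC, ZNF and BCRF8C, against 41.4, 62.4 and 31.04 FPKM in their DMSO libraries. Mcm10, which helps to start unwinding, had 4.49, 14.5 and 9.12 FPKM in the BGJ398 libraries of BBC, ZNF and BCRF8C, against 19.8, 43.7 and 40.3 FPKM in their DMSO libraries. Neither gene overlapped between agents, and the ratio of Mcm10 differed little among the lines (-1.92, -1.53 and -2.03 in BBC, ZNF and BCRF8C; mean -1.82 ± 0.27, limma adjusted p = 0.0348), beside -1.76 ± 0.40 for Cdc45 (limma adjusted p = 0.0348).

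Gins1 and Gins2 encode parts of the same GINS complex, and both were lower with BGJ398 in each line, by unlike amounts. Gins1 had 3.09, 13.5 and 6.41 FPKM with BGJ398 in BBC, ZNF and BCRF8C, against 24.1, 27.4 and 27.6 FPKM with DMSO. Gins2 had 7.94, 7.47 and 7.17 FPKM with BGJ398 in BBC, ZNF and BCRF8C, against 20.3, 21.5 and 13.5 FPKM with DMSO. Gins1 was at 0.390 times the level of Gins2 with BGJ398 in BBC, against 1.19 times with DMSO, and at 0.894 against 2.04 times in BCRF8C, while in ZNF it was at 1.81 against 1.28 times. Both passed limma, Gins1 at -1.84 ± 0.83 (adjusted p = 0.0348) and Gins2 at -1.16 ± 0.30 (adjusted p = 0.0364). With the trend removed, Gins1 was at -1.41, -0.27 and -0.65 in BBC, ZNF and BCRF8C, and Gins2 at 0.08, -0.80 and 0.35. Gins2 stood in a locus listed for 64 entries, so its values are less certain. The difference between the subunits was not tested.

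**Figure D2:**
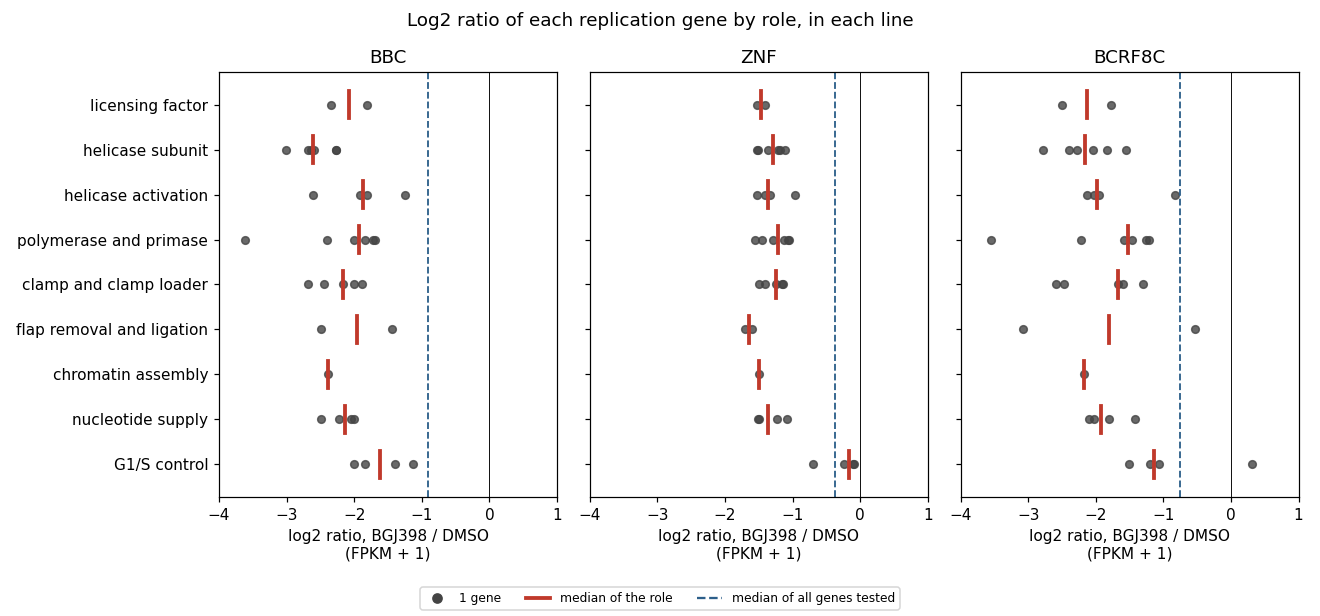
Log2 ratio of BGJ398 over DMSO on the log2(FPKM + 1) scale, 1 panel per line, with the 34 genes by role. Points are genes, red bars the median of a role and the dashed blue line the median of all genes tested (-0.91, -0.37 and -0.76). In BBC and BCRF8C every role median lies left of the line of all genes, and in ZNF the regulators of S phase entry lie right of it at -0.17.

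All 6 subunits of polymerases and primase fell, with a class median of -1.66 and 1 gene far below the rest. Pold2 (ENSMUSG00000020471, chromosome 11, 5772183 to 5778295), the accessory subunit of polymerase delta, had 2.65, 12.7 and 6.95 FPKM with BGJ398 in BBC, ZNF and BCRF8C, against 43.9, 32.6 and 92.2 FPKM with DMSO. Its BGJ398 library in BBC was the lowest of all 6, and its ratio was -3.62, -1.30 and -3.55 in BBC, ZNF and BCRF8C. The mean of -2.82 ± 1.32 (SD, n = 3 lines; limma adjusted p = 0.0348) was the lowest of the 34 members. Pold1, the catalytic subunit of the same enzyme, had 19.2, 32.9 and 13.7 FPKM with BGJ398 in BBC, ZNF and BCRF8C, against 71.3, 98.9 and 67.4 FPKM with DMSO. Pold2 was thus at 0.138, 0.386 and 0.509 times the level of Pold1 with BGJ398 in BBC, ZNF and BCRF8C, against 0.616, 0.330 and 1.37 times with DMSO. Pold1 fell too (-1.87 ± 0.33, limma adjusted p = 0.0348), and the difference between the subunits was not tested.

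Polymerase epsilon, which copies the leading strand, showed another pattern between its subunits. Pole2, an accessory subunit, had 28.4, 8.91 and 4.88 FPKM in the BGJ398 libraries of BBC, ZNF and BCRF8C, against 154, 26.01 and 15.3 FPKM in their DMSO libraries. BBC held far more of it than the other lines with either agent, so its groups overlapped, and it was lower with BGJ398 in each line (-2.40, -1.45 and -1.47 in BBC, ZNF and BCRF8C; limma adjusted p = 0.0348). Pole, the catalytic subunit, had 11.6, 15.8 and 14.4 FPKM in the BGJ398 libraries of BBC, ZNF and BCRF8C, against 40.7, 35.5 and 35.8 FPKM in their DMSO libraries. It was similar in the 3 lines under each agent and had a mean log2 ratio of -1.37 ± 0.32 (limma adjusted p = 0.0349).

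The enzymes that lay down primers fell as well. Pola1, the catalytic subunit of polymerase alpha, had 14.3, 19.01 and 19.3 FPKM with BGJ398 in BBC, ZNF and BCRF8C, against 48.6, 40.5 and 45.9 FPKM with DMSO. Prim1, the catalytic subunit of primase, had 25.3, 62.3 and 43.5 FPKM with BGJ398 in BBC, ZNF and BCRF8C, against 104, 132 and 132 FPKM with DMSO. The agents did not overlap in either gene, and the ratios were -1.32 ± 0.33 (limma adjusted p = 0.0360) and -1.55 ± 0.46 (limma adjusted p = 0.0366). With the trend removed both were near 0, at -0.17, -0.29 and 0.36 for Pola1 and -0.30, -0.15 and 0.29 for Prim1 in BBC, ZNF and BCRF8C, and in BCRF8C both were above 0, as was Pole at 0.24.

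The clamp and its loader fell in all 5 members, with a class median of -1.83. Pcna (ENSMUSG00000027342, chromosome 2, 132074898 to 132079050), the sliding clamp that holds polymerases on DNA, had 61.1, 216 and 171 FPKM with BGJ398 in BBC, ZNF and BCRF8C, against 397, 479.7 and 544 FPKM with DMSO. All 3 BGJ398 libraries were below all 3 DMSO libraries, with BBC the lowest, and the ratio was -1.83 ± 0.78 (SD, n = 3 lines; limma adjusted p = 0.0448). Within its library it stayed among the most abundant genes, at a percentile of 95.4% with BGJ398 and 97.8% with DMSO among the genes tested in BBC, at 97.7% with BGJ398 and 98.1% with DMSO in ZNF and at 98.8% with BGJ398 and 98.4% with DMSO in BCRF8C. With the trend removed its ratios were -0.87, -0.25 and 0.65, so the sign differed in BCRF8C.

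Rfc2 had 10.6, 22.7 and 8.45 FPKM in the BGJ398 libraries of BBC, ZNF and BCRF8C, against 62.2, 51.96 and 55.7 FPKM in their DMSO libraries. Rfc3 had 16.2, 23.4 and 19.6 FPKM in the BGJ398 libraries of BBC, ZNF and BCRF8C, against 68.3, 63.9 and 114 FPKM in their DMSO libraries. These subunits of the clamp loader had their lowest ratios in BCRF8C, and their means were -2.06 ± 0.78 and -1.96 ± 0.53 (limma adjusted p = 0.0348 for each). Rfc4 had 7.83, 20.3 and 11.1 FPKM with BGJ398 in BBC, ZNF and BCRF8C, against 38.7, 59.1 and 28.9 FPKM with DMSO. Rfc5 had 12.7, 16.99 and 12.3 FPKM with BGJ398 in BBC, ZNF and BCRF8C, against 49.8, 41.8 and 39.2 FPKM with DMSO. ZNF was the highest BGJ398 library of both and still below every DMSO library, with means of -1.66 ± 0.46 for Rfc4 and -1.58 ± 0.32 for Rfc5 (limma adjusted p = 0.0348 for each). None of the loader genes overlapped between agents. Rfc4 was at -0.75, -0.70 and 0.12 in BBC, ZNF and BCRF8C with the trend removed. Rfc2, Rfc3 and Rfc5 stayed below 0 in every line on that scale.

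Fen1, the flap nuclease of the lagging strand, had 11.8, 22.5 and 7.49 FPKM with BGJ398 in BBC, ZNF and BCRF8C, against 70.8, 75.2 and 70.8 FPKM with DMSO. Its DMSO levels were nearly equal in the 3 lines and its BGJ398 level was lowest in BCRF8C, which gave ratios of -2.49, -1.70 and -3.08 in BBC, ZNF and BCRF8C and the second lowest mean of the members (-2.42 ± 0.69, limma adjusted p = 0.0348). Lig1, the ligase that seals the fragments, had 8.56, 26.3 and 19.9 FPKM with BGJ398 in BBC, ZNF and BCRF8C, against 24.98, 81.5 and 29.4 FPKM with DMSO. It changed little in BCRF8C (-0.54) and passed narrowly (-1.19 ± 0.57, limma adjusted p = 0.0469). With the trend removed, Fen1 stayed at -0.93, -0.87 and -1.57, while the mean of Lig1 was 0.05, with 0.98 in BCRF8C. Chaf1a, a subunit of the chromatin assembly factor that puts histones on new DNA, had 2.57, 6.65 and 5.70 FPKM in the BGJ398 libraries of BBC, ZNF and BCRF8C, against 17.7, 20.6 and 29.3 FPKM in their DMSO libraries. It was lower in all BGJ398 libraries (-2.02 ± 0.47, limma adjusted p = 0.0348), and with the trend removed it had the smallest adjusted p of the members (0.142).

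**Figure D3:**
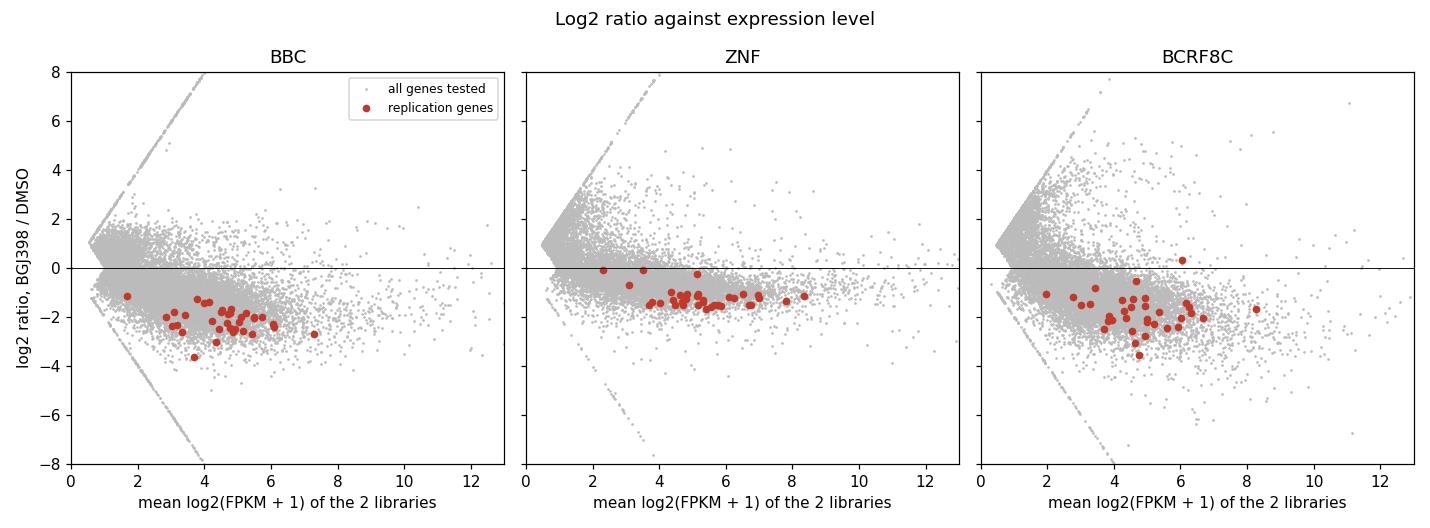
Log2 ratio of BGJ398 over DMSO against the mean log2(FPKM + 1) of both libraries of a line, for the 14232 genes tested (grey) and the 34 replication genes (red). Of 42696 points in the 3 panels, 209 lie beyond the axes. The grey cloud falls from left to right in every line, and every red point but Ccne2 in BCRF8C (0.31) lies below 0.

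All 4 genes of nucleotide supply fell, with a narrow class range of -1.89 to -1.64. Rrm1, the large subunit of ribonucleotide reductase, had 21.2, 82.7 and 30.8 FPKM with BGJ398 in BBC, ZNF and BCRF8C, against 90.8, 196 and 129 FPKM with DMSO. Rrm2 (ENSMUSG00000020649, chromosome 12, 25393106 to 25399011), its small subunit, had 14.1, 31.6 and 20.9 FPKM with BGJ398 in BBC, ZNF and BCRF8C, against 69.4, 91.1 and 75.7 FPKM with DMSO. The enzyme makes deoxynucleotides from ribonucleotides, and its subunits fell together, with mean log2 ratios of -1.77 ± 0.47 for Rrm1 and -1.84 ± 0.36 for Rrm2 (limma adjusted p = 0.0348 for each). Rrm2 was at 0.668, 0.382 and 0.680 times the level of Rrm1 with BGJ398, against 0.764, 0.465 and 0.588 times with DMSO.

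Tyms, which makes thymidylate, had 21.6, 28.6 and 43.2 FPKM in the BGJ398 libraries of BBC, ZNF and BCRF8C, against 89.2, 83.6 and 117 FPKM in their DMSO libraries. Tk1, the thymidine kinase of the salvage route, had 8.02, 23.7 and 14.6 FPKM in the BGJ398 libraries of BBC, ZNF and BCRF8C, against 49.95, 51.3 and 65.6 FPKM in their DMSO libraries. Neither overlapped between agents. Tyms (-1.64 ± 0.31) and Tk1 (-1.89 ± 0.73) both passed limma (adjusted p = 0.0348 for each), and in BCRF8C they went apart with the trend removed, at 0.44 for Tyms and -0.51 for Tk1. On that scale the class had a median of -0.51 in BBC, -0.19 in BCRF8C and -0.47 in ZNF.

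Of the 4 regulators of S phase entry 1 fell and 3 did not pass. Ccne1 (ENSMUSG00000002068, chromosome 7, 38883003 to 38892553), which encodes cyclin E1, had 2.59, 5.69 and 3.74 FPKM with BGJ398 in BBC, ZNF and BCRF8C, against 13.5, 9.91 and 12.5 FPKM with DMSO. It was lower with BGJ398 in each line and fell in limma (-1.41 ± 0.66, limma adjusted p = 0.0350). Ccne2, which encodes cyclin E2, had 13.5, 31.5 and 72.4 FPKM with BGJ398 in BBC, ZNF and BCRF8C, against 50.97, 37.3 and 58.3 FPKM with DMSO. Its BGJ398 library was far below DMSO in BBC, near it in ZNF and above it in BCRF8C, where it was the only member with a ratio above 0 (-1.84, -0.24 and 0.31 in BBC, ZNF and BCRF8C). The mean of -0.59 ± 1.12 did not pass (limma adjusted p = 0.347). Relative to Ccne1, Ccne2 was at 5.20, 5.53 and 19.3 times with BGJ398, against 3.78, 3.76 and 4.66 times with DMSO. Within BCRF8C its percentile among all genes tested was 97.2% with BGJ398 and 87.7% with DMSO.

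The locus of Ccne2 in the table was shared with Ints8, a subunit of the Integrator complex, named here after its values were seen. Ints8 had 9.51, 21.5 and 17.9 FPKM with BGJ398, against 22.8, 31.3 and 45.9 FPKM with DMSO, and so was lower in BCRF8C where Ccne2 was higher. Of the members, 12 stood in a locus shared with other entries, and Cdt1 and Gins2 in one of 64 entries. How reads of overlapping genes were divided is not given in the sources used here, so values of these 12 (Cdt1, Mcm7, Cdc45, Gins2, Pole, Rfc4, Rfc5, Fen1, Lig1, Chaf1a, Tk1 and Ccne2) are less certain than those of the other 22.

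E2f1, an activator of S phase genes and itself a target of E2F, had 1.16, 3.83 and 3.54 FPKM in the BGJ398 libraries of BBC, ZNF and BCRF8C, against 3.76, 4.15 and 9.40 FPKM in their DMSO libraries. E2f2, a second activator, had 9.83, 10.02 and 1.70 FPKM in the BGJ398 libraries of BBC, ZNF and BCRF8C, against 27.5, 10.8 and 4.65 FPKM in their DMSO libraries. In ZNF both genes were almost level between agents, at ratios of -0.09 and -0.10, while in BBC and BCRF8C both were lower with BGJ398. Neither passed limma (E2f1 -0.81 ± 0.62, adjusted p = 0.0975; E2f2 -0.86 ± 0.67, adjusted p = 0.0885). E2f1 was at -0.97, 0.16 and -0.28 in BBC, ZNF and BCRF8C with the trend removed. E2f2 was at 0.003, 0.45 and -0.95 on that scale. In ZNF the replication genes had a median ratio of -1.31 as deposited. E2f1, E2f2 and Ccne2 lay between -0.24 and -0.09 in that line, and Ccne1 at -0.71. With the trend removed, the 4 regulators had a median of -0.65, 0.31 and -0.38 in BBC, ZNF and BCRF8C. All 34 members had -0.70, -0.50 and -0.34. On that scale the medians thus lay far apart in ZNF but close together in BBC and BCRF8C. Not all E2f genes were level in ZNF as deposited. E2f3, from the list of other replication genes, had 10.04 FPKM with BGJ398 and 29.04 FPKM with DMSO in ZNF. Its ratios were 0.02, -1.44 and -0.42 in BBC, ZNF and BCRF8C (limma adjusted p = 0.215). E2f4 to E2f8 lay between -0.73 (E2f6) and 0.18 (E2f7) in ZNF. Across the lines E2f4 (-1.78), E2f5 (-1.23) and E2f6 (-0.97) were called lower (limma adjusted p = 0.0374, 0.0479 and 0.0482). E2f7 (-0.25) and E2f8 (-0.96) did not pass (limma adjusted p = 0.531 and 0.0789). E2f4 was at -2.39, -0.48 and -2.47 in BBC, ZNF and BCRF8C. E2f3 to E2f8 were named after their values were seen. The members with E2F letters in a listed promoter (12, median -1.86) and those with none in the bases searched (16, median -1.80) had similar mean ratios. Of these 11 and 15 were called lower, beside 30.2% of all genes tested. As 31 of the 34 members were called, these counts could hardly differ between the sets. Of the 34 listed promoters, 27 had their last bases in a transcript of the gene. Which starts these cells use was not tested, so a gene without the letters here may hold them elsewhere.

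**Figure D4:**
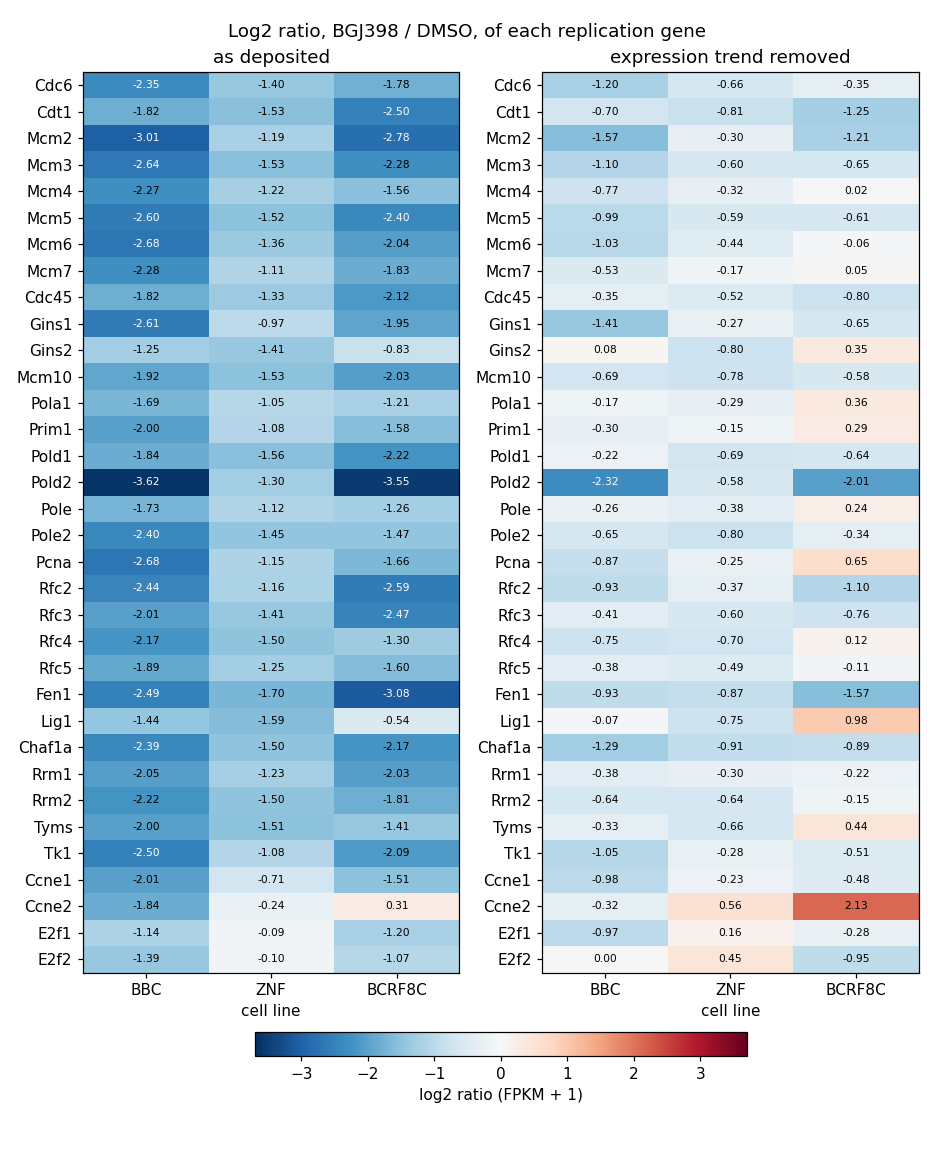
Log2 ratio of BGJ398 over DMSO for each replication gene (rows) in each line (columns), as deposited on the left and with the expression trend removed on the right, blue for lower and red for higher with BGJ398. On the left all cells but Ccne2 in BCRF8C (0.31) are below 0. On the right Pold2 has the lowest values in BBC (-2.32) and BCRF8C (-2.01), and Ccne2 in BCRF8C the highest (2.13).

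Within a line a ratio has no replicate and no test. In BBC all 34 members were at least 2-fold lower (45.0% of the genes that averaged 1 FPKM or more in that line), in ZNF 29 (16.3%) and in BCRF8C 31 (43.5%). No member was at least 2-fold higher in any line, beside 8.79% of genes for BBC, 13.2% for ZNF and 21.7% for BCRF8C. BBC had a median ratio over the 34 genes of -2.11 (-0.91 over all genes), BCRF8C of -1.82 (-0.76) and ZNF of -1.31 (-0.37). The lowest of a member's 3 ratios came from BBC for 24 members, from BCRF8C for 8 and from ZNF for 2, and the highest from ZNF for 29. The lines differ in dose as well, if the doses follow the protocol's order, and the difference between lines was not tested.

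The order of the members by ratio was partly shared between BBC and BCRF8C, with a Pearson r of 0.68 across the 34 members (Spearman rho 0.62), and less between ZNF and BBC (0.33 and 0.09) or ZNF and BCRF8C (0.47 and 0.38). These correlations are across genes that share their libraries, and over all 14232 genes the Pearson r was 0.55, 0.46 and 0.56 for the same pairs. Members with higher DMSO levels had lower ratios in each line (Pearson r -0.46 in BBC, -0.50 in ZNF and -0.35 in BCRF8C, n = 34 genes), and the DMSO value is part of the ratio.

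**Figure D5:**
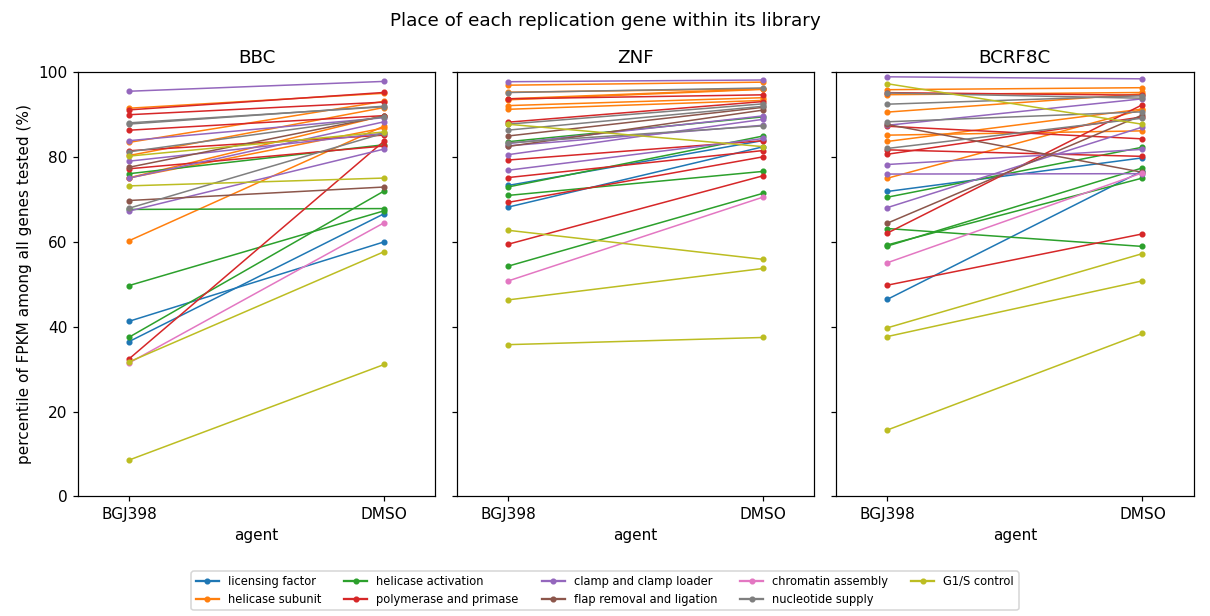
Percentile of each replication gene's FPKM among the 14232 genes tested within its library, BGJ398 left and DMSO right in each panel, coloured by role. Most lines climb to the right, since 34 of 34 genes in BBC, 32 in ZNF and 26 in BCRF8C held a lower place with BGJ398. The same share over all genes tested was not computed.

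The place of a gene within its own library does not depend on a scaling factor. How many of all genes, or of genes at like expression, held a lower place with BGJ398 was not computed. The median percentile of the members among all genes tested was 75.5%, 82.8% and 79.4% with BGJ398 in BBC, ZNF and BCRF8C, against 85.7%, 88.1% and 86.6% with DMSO. Pold2 differed most in BBC, at 32.4% with BGJ398 and 83.7% with DMSO. Chaf1a was at 31.4% with BGJ398 and 64.5% with DMSO in BBC, and Gins1 at 37.5% with BGJ398 and 71.96% with DMSO. In ZNF Ccne2 and E2f2 held a higher place with BGJ398, E2f2 at 62.7% with BGJ398 and 55.8% with DMSO. In BCRF8C 8 members did, most of all Lig1, at 87.6% with BGJ398 and 76.3% with DMSO.

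The rest of the replication machinery, in a list of 81 other genes, was lower in 60 members and higher in 0 by limma (called at the same threshold, beside 30.2% of all genes lower and 6.61% higher), with a median ratio of -1.37. Of 12 genes of origin recognition and its kinase 10 fell, most of all Gmnn (-2.08 ± 0.62, limma adjusted p = 0.0348), which encodes geminin, the inhibitor of Cdt1. Of 23 other subunits at the fork 20 fell, led by Rpa2, a subunit of the single-strand binding protein (-2.01 ± 0.53, limma adjusted p = 0.0348). Of 11 other genes of nucleotide supply 7 fell, led by Dctpp1, which removes unwanted deoxycytidine nucleotides. Dctpp1 (ENSMUSG00000042462, chromosome 7, 134400473 to 134404223) had 4.35, 60.1 and 18.3 FPKM with BGJ398 in BBC, ZNF and BCRF8C, against 112, 185 and 168 FPKM with DMSO, at -3.05 ± 1.40 (SD, n = 3 lines; limma adjusted p = 0.0348).

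Of 11 genes of chromatin coupled to replication 9 fell, led by Cdca7, a partner of the remodeller Hells (-2.24 ± 1.50, limma adjusted p = 0.0377). Of 24 other regulators of S phase entry 14 fell and 10 did not pass. Beside these counts, limma called 30.2% of all genes lower, and 59.6% of the genes within the quartiles of the 34 members' means. A background at like expression was not computed for the 81 genes. The lowest of these regulators was Ccnd3, which encodes cyclin D3 (-2.47 ± 0.68, limma adjusted p = 0.0348), with 47.4, 20.02 and 14.9 FPKM with BGJ398 in BBC, ZNF and BCRF8C, against 207, 86.3 and 151 FPKM with DMSO. With the expression trend removed 0 of the 81 passed in limma, as did 0% of all genes, and the median of the 81 was -0.25.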

How the data were processed

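The submitters' processing notes name bcl2fastq, TopHat2 (2.0.12) and the build NCBIM37. The authors deposited 1 table of FPKM values with 17169 entries and 6 columns, each matched to 1 sample title (0 columns were left unmapped). Which program, gene models or filters produced the FPKM is not given in the sources used here. No steps of whole reads were found among low values of single-exon genes, so depth is unknown and no counting error is given. Locus starts were raised by 1, since end minus start equalled the GENCODE vM21 gene length for 6377 of 15944 matched entries.

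Values were analysed as log2(FPKM + 1). The 14232 genes averaging 1 FPKM or more were tested with limma (version 3.58.1, R 4.3.3; intensity trend, two-sided, Benjamini-Hochberg over all genes, called at adjusted p under 0.05) with the line as a block, which left 2 residual degrees of freedom before moderation. The smallest two-sided p of an exact permutation of signs over 3 pairs is 0.25. The libraries are paired by cell line, and the deviations within a pair from the group means correlated at 0.454, 0.541 and 0.549 in BBC, ZNF and BCRF8C. No source says that lines were cultured repeatedly, so p-values measure the spread between 3 lines. The code was tested on simulated data.

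The members and lists were chosen with earlier results of these data known. All members were described by role, and of the 81 other replication genes the largest called fall and rise of each class, with E2f3 to E2f8 added after their values were seen. Alternatives were median-of-ratios scaling, quantile normalization, removal of the expression trend (lowess, span 0.3), a pseudocount of 0.1, no filter or a mean of at least 5 FPKM, genes above 0 in all 6 libraries, each line left out, and no block. Setting values under 1 FPKM to 1 and the background of genes at like expression were chosen after seeing the data. Promoters were read from a RefSeq table (GRCm38.p6) by symbol, and its coordinates were kept apart from those of the deposited table. Figures were drawn with matplotlib 3.10.9. One marker gene is not reported here and was left out of the marker sums.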

Additional observations from a re-analysis of the deposited data

Results flagged for a closer look

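One gene went in opposite directions between lines. The log2 ratio of Ccne2, BGJ398 over DMSO, was -1.84 in BBC, -0.24 in ZNF and 0.31 in BCRF8C, with 1 pair of libraries per line, so the difference between the lines was not tested. No group held enough samples to look for single outlying libraries.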

How the results depend on the processing

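The count of members called lower (31) was 30 to 32 with a pseudocount of 0.1, without a filter, at a mean of at least 5 FPKM, with genes above 0 in all 6 libraries, with values under 1 FPKM set to 1 (chosen after seeing the data) and without ZNF. It was 0 after median-of-ratios scaling, quantile normalization and removal of the expression trend, where 29, 18 and 14 members were lower at an unadjusted p under 0.05 (21.9%, 13.6% and 9.79% of all genes). Leaving out 1 line gave 6 to 30, with the members' median ratio at -2.02 to -1.53. Without the line as a block it was 0 (28 lower at an unadjusted p under 0.05, as were 29.4% of all genes). The count of 60 other replication genes was 0 under the same 3 scalings and without the block, and 7 to 59 with 1 line left out. No alternative called a member higher. All genes called lower numbered 4295, and 1, 1 and 0 under the 3 scalings (3, 2 and 0 higher against 941), 4848 without ZNF, 988 without BBC, 859 without BCRF8C and 1 without the block.

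The members' median ratio of -1.80 was -1.08, -0.67 and -0.51 under median-of-ratios scaling, quantile normalization and trend removal, while that of all genes was -0.07, -0.11 and 0.03. Per line, on the same 3 scales in that order, the members' median was -1.11, -0.89 and -0.70 in BBC and -0.99, -0.63 and -0.34 in BCRF8C. In ZNF it was -1.04, -0.57 and -0.50, against -1.31 as deposited. Members at least 2-fold lower numbered 18, 14 and 8 in BBC, 18, 0 and 0 in ZNF and 16, 7 and 5 in BCRF8C. The same shares over all genes were not computed on these scales, so these counts have no background beside them. The mean of Ccne2 changed sign, to 0.14, 0.76 and 0.79 on these scales and ran from -1.04 to 0.036 with 1 line left out (0.036 without BBC), and that of Lig1 to 0.051 with the trend removed. The cause of these differences was not tested, apart from the loss of 1 line's libraries.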
